A study of Mus musculus with 44 samples.

Results

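The mRNA of skeletal stem cells (SSCs) was compared with that of their immediate progeny, the pre-bone, cartilage and stromal progenitors (pBCSP, named pre-BCSP in the labels), in wild-type mice. The 4 libraries compared are the 2 input libraries of SSC and the 2 of pBCSP, out of 44 libraries in the series, and they were chosen by the population, genotype and library type in their labels. All 4 are of sorted long bone cells of C57Bl6 mice at 3 days after birth, with no treatment. The study uses wild type (WT) for the Mettl3 fl/fl control mice of its knockout comparison, and took mice of this age regardless of sex. It does not say whether the mice of these libraries carried the floxed allele. The cells came from the lower limbs by flow cytometry, as CD45-, Ter119-, Tie2-, Thy-, 6C3-, CD105- and CD51+ cells, and CD200 separates SSC (CD200+) from pBCSP (CD200-). The input libraries are the RNA before antibody enrichment in SLIM-seq, a method for mapping N6-methyladenosine (m6A) in small samples, and they serve as RNA-seq. For reference the report also uses the 12 WT input libraries of the other 6 populations, which are BCSP (the CD105+ step after pBCSP), pro-chondrogenic progenitors (PCP), THY, BLSP, 6C3 and HEC, the 16 WT libraries enriched with the m6A antibody (IP), and the 4 input libraries of SSC and pBCSP labelled Mettl3cko. The latter are from Mettl3 fl/fl;Col2a1-Cre mice of the same strain and age, in which Col2a1-Cre acts in cells that have made type II collagen.

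In the mouse skeletal hierarchy, SSCs give rise to pBCSP, and these to BCSP, from which cartilage, bone and stroma form. The growth plate from which such cells are taken holds resting, proliferating and hypertrophic chondrocytes. Hypertrophic chondrocytes make type X collagen and mineralise their matrix, and osteoblasts and osteocytes secrete and mineralise bone with alkaline phosphatase and the acidic matrix proteins of the SIBLING family. The perichondrium, tendon and periosteum around the cartilage hold fibroblast-like cells that secrete fibrillar collagens and the proteins that bind them.

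The SSC libraries held 32460090 and 29766972 gene counts and the pBCSP libraries 30946739 and 32330623. Mitochondrial genes took between 0.427% and 0.609% of the counts, and Pearson's r of log2 values across genes was 0.979 between the SSC replicates and 0.977 between the pBCSP replicates. The mRNA of the gate's antigens followed the gate only in part. Cd200, the gene of the antigen that separates both populations, stood at 287 and 145 CPM (read counts divided by library size in units of 1000000 reads, with TMM scaling over the 16 WT input libraries) in SSC and at 25.5 and 20.8 CPM in pBCSP, a difference that the sort itself sets. Itgav, which encodes CD51, was at 41.1 and 39.3 CPM in SSC and 29.5 and 34.6 CPM in pBCSP. Eng, which encodes CD105, was between 32.2 and 63.2 CPM in the 4 libraries and Enpep, which encodes 6C3, between 3.18 and 5.32 CPM. In each library Eng mRNA was higher than Itgav mRNA, although the gate is CD105- and CD51+. Ptprc, which encodes CD45, had no read in any of them, Thy1 had between 2 and 11 reads, and Tek, which encodes Tie2, had no read in SSC and 0.765 and 0.486 CPM in pBCSP. In both populations cartilage genes were abundant, with Col2a1 between 69250 and 82590 CPM.

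Hematopoietic, erythroid, endothelial, mural, skeletal muscle, osteoclast, nerve and adipocyte marker lists showed no called gene except Rgs5, a gene of mural cells. Joint and tendon genes, of which 2 were called, are given below. Many markers had too few counts to test. Those tested were 11 of 20 hematopoietic, 6 of 12 erythroid, 8 of 12 endothelial and 3 of 12 skeletal muscle markers. The summed level of 20 hematopoietic markers was 25.9 and 15.4 CPM in SSC and 20.3 and 11.3 CPM in pBCSP, and that of 12 endothelial markers 19.7 and 17.2 against 29.5 and 16.4 CPM. Erythroid markers summed to at most 6.35 CPM, skeletal muscle markers to at most 40.3 CPM and adipocyte markers to at most 30.1 CPM. Osteoclast markers summed to 138 and 114 CPM in SSC and 131 and 113 CPM in pBCSP, nearly all of it from Ctsk, which other skeletal cells express, and Calcr and Atp6v0d2 had no read. Mural markers summed to 489 and 510 CPM in SSC and 675 and 486 CPM in pBCSP with Tagln at 0, and Schwann and nerve markers to between 109 and 149 CPM. In these sums the populations overlapped, except for adipocyte markers, at 28.1 and 30.1 CPM in SSC and 22.4 and 21.7 CPM in pBCSP. Within each population the replicates differed in X- and Y-linked genes. Xist, the RNA of the inactive X chromosome, was at 116 and 8.74 CPM (by library size alone) in SSC replicates 1 and 2 and at 113 and 5.48 in pBCSP replicates 1 and 2, while Ddx3y, on the Y chromosome, was at 0.462 and 153 in SSC and at 0.582 and 182 in pBCSP. This contrast runs between the replicate numbers and is the same in SSC and pBCSP. By these genes replicate 1 read as female cells and replicate 2 as mostly male cells in both populations. The main test has no term for this. None of the 5 sex-linked genes tested was called between the populations.

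Of 16130 genes with enough counts to test, 48 were higher in SSC (0.298% of the genes tested) and 111 were lower (0.688%) at an adjusted p under 0.05 (edgeR quasi-likelihood test over the 16 WT input libraries, Benjamini-Hochberg). At an unadjusted p under 0.05 the numbers were 540 and 867. In each of the 159 called genes both SSC libraries lay on the same side of both pBCSP libraries, which the call itself favours and which held for 6080 of all 16130 genes. The smallest called log2 fold changes were 0.89 and -0.84. All 48 genes higher in SSC and 107 of the 111 lower genes are annotated as protein-coding. With 2 libraries against 2, an exact permutation test of a single gene cannot give a two-sided p below 0.333, so the calls draw on the spread between replicates estimated over all 8 populations. Fitted on the 4 libraries alone, 38 genes were called, 36 of them among the 159, including 12 of the 20 genes called higher and 12 of the 28 called lower that the naming rule picks. The study describes its replicates as independent biological experiments, but the labels do not say how many animals or litters each library holds. In sorted bulk cells, fewer cells that express a gene and less RNA of it per cell cannot be told apart.

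**Figure D1:**
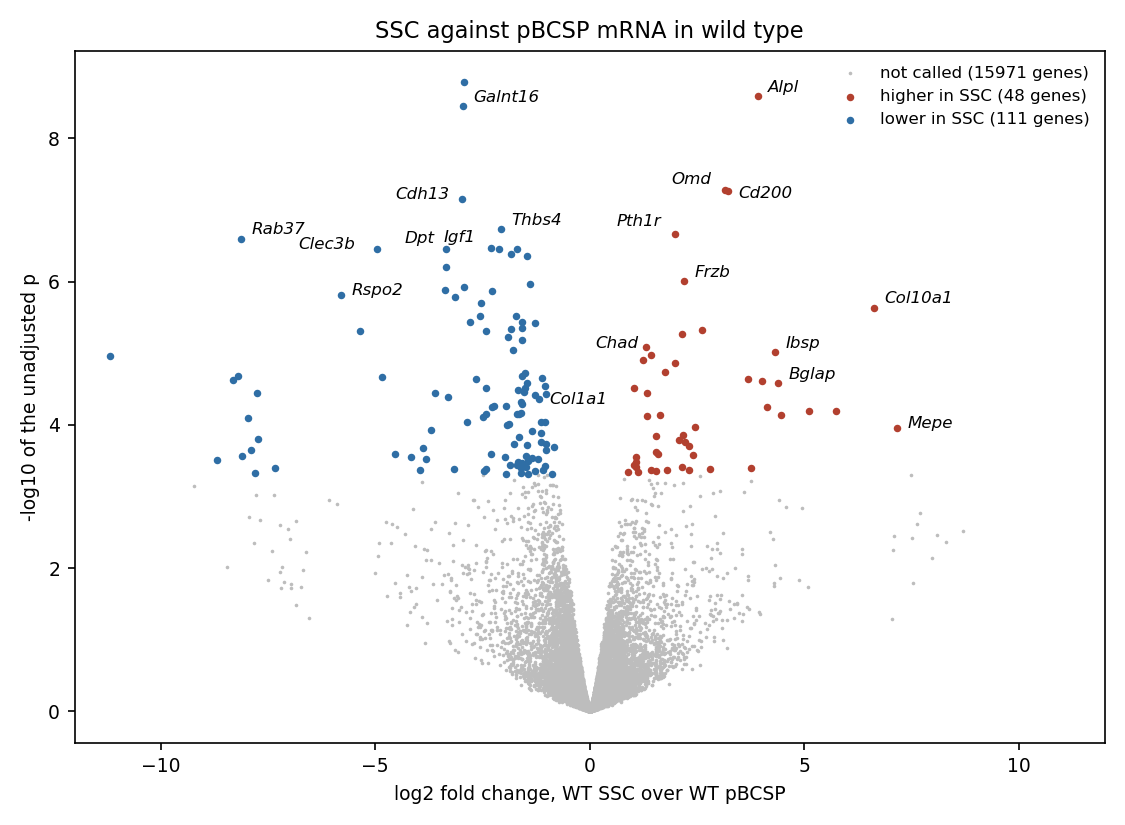
Log2 fold change of WT SSC over WT pBCSP (x axis) against -log10 of the unadjusted p (y axis) for the 16130 genes tested, with called genes in red (higher in SSC) and blue (lower in SSC). Alpl has the smallest p among the 48 genes higher in SSC, and the genes with fitted changes beyond -7 each had 3 reads or fewer in SSC.

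Most of the genes with the largest rise in SSC were genes of bone and mineralised matrix. Among 19 tested genes of osteoblasts and bone matrix, 8 were higher in SSC, 1 was lower (Col1a1) and 10 did not pass, with a median log2 fold change of 2.61 against -0.01 over all genes tested. All gene lists were chosen with earlier results of these data known, so list counts and medians are a description only. Mepe, an acidic matrix protein of osteocytes, was at 7.69 and 11.4 CPM in SSC and at 0.128 and 0 CPM in pBCSP, where it had 4 reads in all. Ibsp, the bone sialoprotein, was at 1558 and 838 CPM in SSC and at 67.8 and 52.2 CPM in pBCSP, a log2 fold change of 4.32 ± 0.66 (SE, adjusted p = 0.00367). Alpl, the tissue-nonspecific alkaline phosphatase that frees phosphate for mineral, was at 434 and 307 CPM against 26.6 and 22.7 CPM, a 15.1-fold difference (log2 3.91 ± 0.31, adjusted p = 1.9e-05). For each of the 3 genes the lower SSC library stood more than an order of magnitude above the higher pBCSP library.

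Dmp1, a further acidic protein of the same family made by osteocytes and mineralising cells, was at 38.7 and 23.1 CPM in SSC and at 5.29 and 4.83 CPM in pBCSP (log2 2.61 ± 0.37, adjusted p = 0.00216). Phex, a membrane endopeptidase of bone that takes part in phosphate balance, was at 3.52 and 4.14 CPM against 0.287 and 0.182 CPM. Ifitm5, a membrane protein of osteoblasts, was at 5.98 and 5.97 CPM against 0.223 and 0.699 CPM. All 3 were separated between the populations, at levels well under those of Ibsp and Alpl. Bglap, one of the osteocalcin genes, was at 25.96 and 26.6 CPM in SSC and at 1.72 and 0.79 CPM in pBCSP (log2 4.39 ± 0.73, adjusted p = 0.00729), and its neighbour Bglap3 was at 13.2 and 13.8 CPM against 2.97 and 0.882 CPM. Bglap, Bglap2 and Bglap3 are near-identical copies, so the division of reads among them is uncertain. Col1a1, the main collagen chain of bone, ran the other way within this list, at 5450 and 4135 CPM in SSC and at 10730 and 10950 CPM in pBCSP (log2 -1.18 ± 0.21, adjusted p = 0.01). The osteoblast transcription factors of the list were not called, with Runx2 at 41.2 and 56.0 CPM in SSC and 49.0 and 37.9 CPM in pBCSP and Sp7 at 39.4 and 32.8 CPM against 29.3 and 11.5 CPM. These 2 were picked here after their values were seen.

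Alpl and Dmp1 stayed called when any 1 of the 4 libraries was left out. Without pBCSP replicate 2 the adjusted p was 0.063 for Ibsp, 0.0911 for Bglap, 0.0903 for Phex, 0.294 for Bglap3 and 0.111 for Mepe, which also missed without SSC replicate 2 (0.0712). Ifitm5 missed without pBCSP replicate 1 (0.0593), Col1a1 without pBCSP replicate 1, pBCSP replicate 2 or SSC replicate 2 (0.0504, 0.0729 and 0.143), and Bglap3 also without either SSC library (0.119 and 0.136). The log2 fold changes kept their sign in each of these fits.

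**Figure D2:**
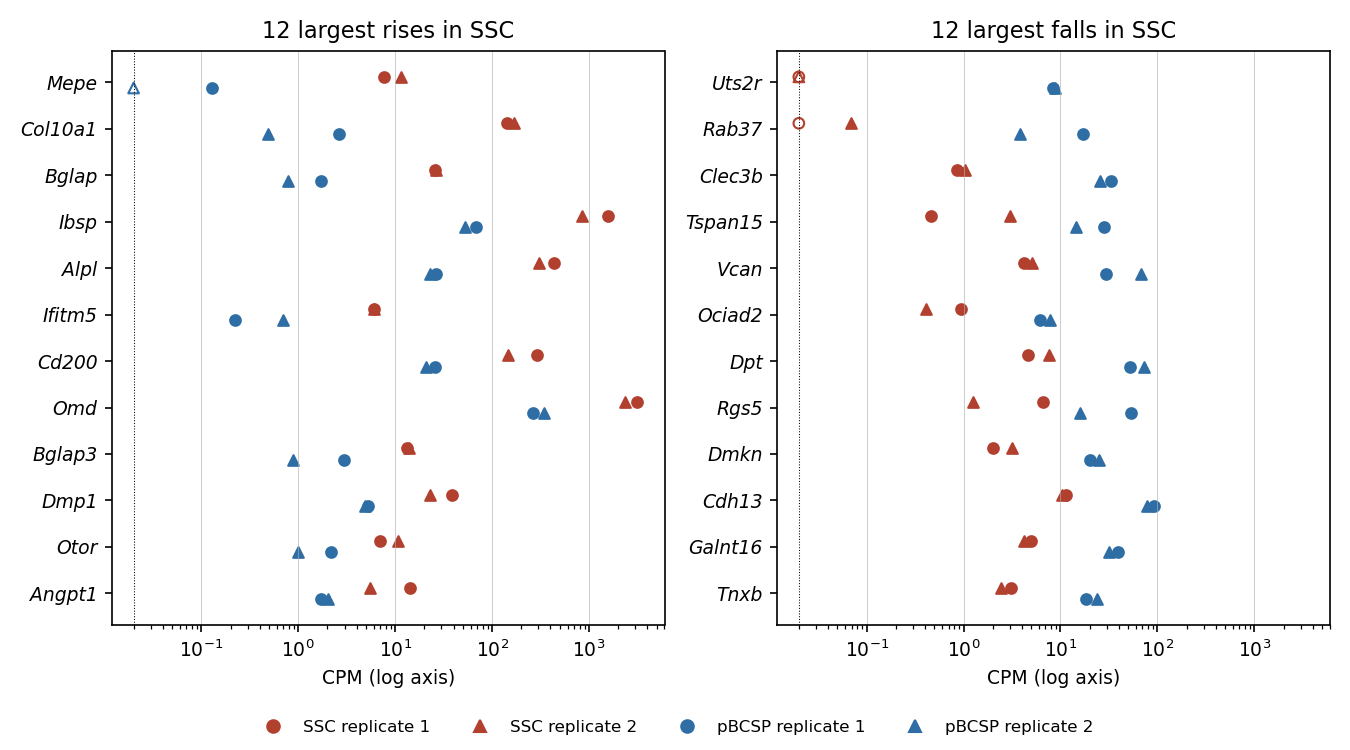
CPM in each of the 4 libraries (log axis, circle for replicate 1 and triangle for replicate 2) for the 12 genes with the largest rise and the 12 with the largest fall in SSC (red) over pBCSP (blue). Open symbols on the dotted line are libraries with no read, and in each gene both red symbols lie on 1 side of both blue symbols.

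Of 16 hypertrophic chondrocyte genes tested, 5 were higher in SSC, none was lower and 11 did not pass, with a median log2 fold change of 1.04. Of the 5, Alpl and Ibsp also stand in the bone list, and Col10a1, Pth1r and Mef2c do not. Col10a1, the type X collagen chain, was at 141 and 168 CPM in SSC and at 2.65 and 0.486 CPM in pBCSP (log2 6.63 ± 0.89, adjusted p = 0.00143). Pth1r, the receptor for parathyroid hormone and PTHrP, was at 83.8 and 98.5 CPM against 24.4 and 21.6 CPM (3.97-fold, adjusted p = 0.000406), and Mef2c, a transcription factor of hypertrophy, was at 112 and 94.6 CPM against 42.6 and 41.3 CPM (2.46-fold, adjusted p = 0.00332). All 3 stayed called without any 1 of the 4 libraries, but Mef2c missed when fitted on the 4 libraries alone (adjusted p = 0.0584). Some members with similar values did not pass. Mmp13, the collagenase of late hypertrophy, was at 200 and 89.9 CPM in SSC and 18.2 and 5.90 CPM in pBCSP (adjusted p = 0.073), and Spp1, osteopontin, was at 3347 and 2447 CPM against 759 and 530 CPM (adjusted p = 0.0601). Ihh, the hedgehog ligand of prehypertrophic cells, was at 47.8 and 71.1 CPM against 32.1 and 40.1 CPM (adjusted p = 0.699). The last 3 were picked after their values were seen.

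Several other genes among the 12 largest rises have parts in cartilage, bone or vessels. Omd, osteomodulin, a keratan sulfate proteoglycan of mineralised tissue, was the most abundant of the 12, at 3088 and 2323 CPM in SSC and 265 and 343 CPM in pBCSP (8.9-fold, adjusted p = 0.000176). Otor, a small secreted protein related to a cartilage protein of the same family, was at 6.90 and 10.7 CPM against 2.2 and 1.00 CPM. Angpt1, the ligand of Tie2, was at 14.4 and 5.56 CPM against 1.72 and 2.01 CPM. Omd was called without any 1 library, while Otor missed without pBCSP replicate 2 (0.175) or SSC replicate 2 (0.128). Angpt1 missed without SSC replicate 1 (0.279), pBCSP replicate 1 (0.186) or pBCSP replicate 2 (0.168).

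Promoters of the called genes were searched for AACCACA, the core that RUNX factors bind in osteoblast genes, on both strands (reverse complement TGTGGTT), from 250 bases before to 50 bases after each start in RefSeq sequence of GRCm38.p6. Promoters were found by symbol for 39 of the 48 genes higher in SSC, 79 of the 111 lower and 11099 of all genes tested. The motif stood in at least 1 window of 4 of the 39 genes (10.3%), of 4 of the 79 (5.06%) and of 486 of all genes tested with a promoter (4.38%). Over all genes with a promoter, tested or not, the share was 6.09%. Counted by window, it was 7.14% for genes higher in SSC, 3.67% for genes lower and 3.55% for all genes tested. Over all 32851 windows it was 5.27%. The sites of 2 genes described here, Dmp1 (higher in SSC) and Dpt (lower in SSC), are shown as examples from either direction, 5' to 3' on the strand of the gene with the motif in capitals. The Dmp1 stretch shown is at chr5:104202441-104202469, and the motif within it starts 165 bases before the RefSeq start. The Dpt stretch shown is at chr1:164796642-164796670, and the motif within it starts 10 bases before the RefSeq start.
Dmp1: agtcatttgagAACCACAagagcttttta
Dpt: ccacatctgggAACCACAtgtcagcggca
The letters occur in genes that move either way, and a match does not show that a factor binds there.

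Of 22 cartilage matrix genes tested, 1 was higher in SSC, none was lower and 21 did not pass. Their median log2 fold change was 0.24, with 19 of the 22 above 0, and their summed level was 155400 and 139000 CPM in SSC and 125500 and 130600 CPM in pBCSP, without overlap. No test was run on the sum. The called gene was Chad, chondroadherin, a leucine-rich protein that binds collagen and integrins, at 13520 and 11660 CPM in SSC and at 4801 and 4514 CPM in pBCSP (2.7-fold, adjusted p = 0.00393, and 0.062 without pBCSP replicate 2). Col2a1, the chain of the main cartilage collagen, was at 82590 and 69250 CPM against 69390 and 74690 CPM, and Acan, the aggrecan core protein, at 772 and 1260 CPM against 950 and 925 CPM, so that their libraries overlapped. Among 17 regulators of cartilage only Pth1r and Mef2c were called. The 23 genes of the resting zone and of stem cells held no call in either direction and had a median of 0.27. Ucma, an early chondrocyte matrix protein, was at 2320 and 2062 CPM in SSC and at 1120 and 1068 CPM in pBCSP, separated but with an adjusted p of 0.151, and Wif1, a secreted Wnt inhibitor, was at 1916 and 1312 CPM against 1299 and 1297 CPM (adjusted p = 0.794). None of 17 genes of chondroitin synthesis and sulfation was called, with Chst12 at 299 and 304 CPM in SSC and 218 and 214 CPM in pBCSP (adjusted p = 0.366) and Papss2 overlapping between the populations.

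**Figure D3:**
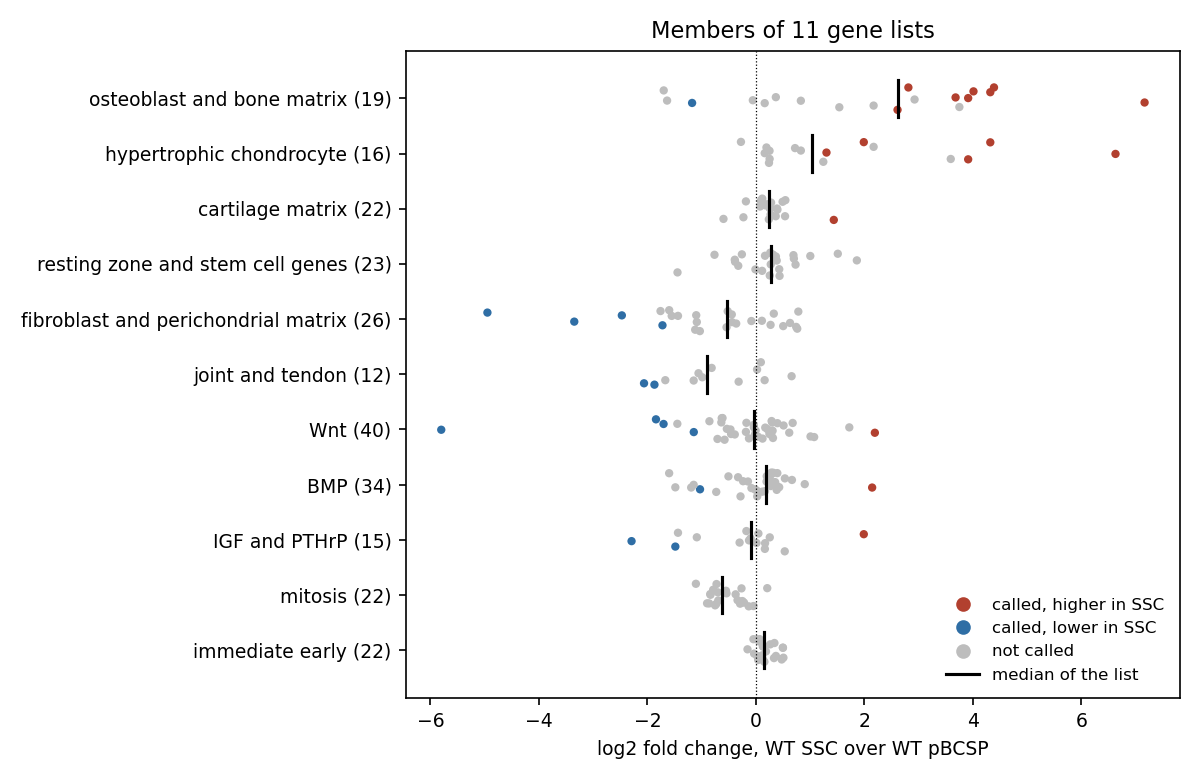
Log2 fold change of WT SSC over WT pBCSP (x axis) for the tested members of 11 gene lists (number tested in brackets), each point a gene and each bar the median of its list. Called members of the bone and hypertrophic lists lie to the right except Col1a1, called members of the fibroblast and joint lists lie to the left, and the medians of the cartilage matrix and resting zone lists are 0.24 and 0.27. The lists were chosen with earlier results of these data known.

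The genes with the largest fall in SSC, and so the largest excess in pBCSP, were secreted proteins of connective tissue together with genes of various other roles. Of 26 fibroblast and perichondrial matrix genes, 4 were lower in SSC, none was higher and 22 did not pass, with a median log2 fold change of -0.53. Clec3b, tetranectin, a secreted lectin that binds plasminogen, was at 0.854 and 1.04 CPM in SSC and at 33.2 and 25.4 CPM in pBCSP (30.9-fold higher in pBCSP, adjusted p = 0.000406). Dpt, dermatopontin, a matrix protein that binds decorin, was at 4.67 and 7.63 CPM against 51.9 and 73.3 CPM (10.2-fold, adjusted p = 0.000406). Cd34, a sialomucin of stromal and other progenitors, was at 12.8 and 17.7 CPM against 55.6 and 45.1 CPM (3.3-fold, adjusted p = 0.00175). These 3 were called without any 1 library, but Cd34 missed when fitted on the 4 libraries alone (adjusted p = 0.0584). Mfap5, a microfibril protein, was at 1.64 and 11.3 CPM in SSC and 27.8 and 43.9 CPM in pBCSP and missed without pBCSP replicate 1 (0.0568), pBCSP replicate 2 (0.223) or SSC replicate 1 (0.0646). The summed level of the list ran the other way, at 49590 and 46810 CPM in SSC and 32540 and 35970 CPM in pBCSP, because its most abundant member Sparc, osteonectin, was at 38920 and 34620 CPM against 22190 and 20600 CPM (adjusted p = 0.295).

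Among 12 joint and tendon genes, 2 were lower in SSC and none was higher, with a median of -0.90. Thbs4, a thrombospondin of tendon, was at 26.8 and 31.7 CPM in SSC and at 118 and 126 CPM in pBCSP (4.18-fold higher in pBCSP, adjusted p = 0.000406), and stayed called without any 1 library. Kera, keratocan, a small proteoglycan of tendon and cornea, was at 5.46 and 3.56 CPM against 24.0 and 9.06 CPM (adjusted p = 0.0171), and missed without pBCSP replicate 1 (0.161), SSC replicate 1 (0.0509) or SSC replicate 2 (0.207). Prg4, lubricin of the joint surface, was at 1591 and 1898 CPM in SSC and at 3055 and 3088 CPM in pBCSP and did not pass (adjusted p = 0.362; picked after its values were seen).

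The remaining members of the 12 largest falls have no common list. Uts2r, the urotensin receptor, had no read in either SSC library and 8.35 and 8.72 CPM in pBCSP, which is at least 82.4-fold higher in pBCSP against a floor of 3 reads per library. Rab37, a small GTPase of secretory vesicles, had 0 and 2 reads in SSC and 16.9 and 3.83 CPM in pBCSP, a ratio of 303 with a 95% interval of 83.6 to 2509 for counting error only. Of the 111 genes lower in SSC, 15 had 3 reads or fewer there in all, and so had 2 of the 48 in pBCSP. For those genes the fitted size of the change depends on the prior count of the fit.

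Vcan, the large chondroitin sulfate proteoglycan of immature mesenchyme, was at 4.24 and 5.11 CPM in SSC and at 29.3 and 68.0 CPM in pBCSP (10.4-fold higher in pBCSP, adjusted p = 0.000996). Tnxb, tenascin X, was at 3.06 and 2.45 CPM against 18.6 and 23.7 CPM, and Cdh13, a cadherin anchored in the membrane by a lipid, at 11.3 and 10.4 CPM against 92.1 and 78.2 CPM (7.83-fold, adjusted p = 0.000187). Galnt16, an enzyme that starts O-linked glycans, was at 4.93 and 4.21 CPM against 39.4 and 31.8 CPM (7.79-fold, adjusted p = 1.9e-05). In all 4 genes both pBCSP libraries lay above both SSC libraries, with the widest gap between replicates for Vcan in pBCSP. Tspan15, a tetraspanin, was at 0.46 and 3.04 CPM in SSC and at 28.3 and 14.4 CPM in pBCSP, Ociad2 at 0.953 and 0.414 against 6.22 and 7.84 CPM, and Dmkn, a secreted protein first described in skin, at 2.004 and 3.14 against 19.96 and 25.2 CPM. All of these, and Uts2r and Rab37, were called without any 1 library. Fitted on the 4 libraries alone, Tspan15, Ociad2 and Rab37 missed (adjusted p = 0.195, 0.0906 and 0.0529). Rgs5, a regulator of G protein signalling and a marker of pericytes, was at 6.57 and 1.24 CPM in SSC and 53.9 and 15.9 CPM in pBCSP, and missed without pBCSP replicate 1 (0.278) or SSC replicate 2 (0.275).

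Signalling genes showed single members called in several pathways. Of 40 Wnt genes tested, 1 was higher and 4 were lower in SSC. Frzb, a secreted frizzled-related Wnt antagonist of cartilage, was at 390 and 277 CPM in SSC and at 59.6 and 86.4 CPM in pBCSP (4.57-fold, adjusted p = 0.000888). Dkk3, a secreted protein of the Dickkopf family, was at 79.3 and 77.0 CPM against 250 and 259 CPM (3.26-fold higher in pBCSP, adjusted p = 0.000406). Rspo2, a secreted enhancer of Wnt signalling, had 2 reads in each SSC library and 2.04 and 5.87 CPM in pBCSP, and Nkd2, an intracellular Wnt inhibitor, was at 1.94 and 1.21 CPM against 4.97 and 6.35 CPM. Fitted on the 4 libraries alone, Rspo2 and Nkd2 missed (adjusted p = 0.0728 and 0.31). Wnt9a, a ligand of joint formation, was at 5.55 and 4.45 CPM in SSC and 9.73 and 12.4 CPM in pBCSP. The first 4 stayed called without any 1 library, and Wnt9a missed without pBCSP replicate 2 (0.198), SSC replicate 1 (0.0718) or SSC replicate 2 (0.246). Axin2, a common target of the pathway, was at 3.91 and 5.87 CPM in SSC and 2.52 and 4.35 CPM in pBCSP and was not called (adjusted p = 0.892; picked after its values were seen).

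Of 34 BMP genes, 1 was higher and 1 was lower. Chrdl1, a secreted BMP antagonist, was at 77.1 and 65.8 CPM in SSC and at 19.7 and 12.7 CPM in pBCSP (4.41-fold, adjusted p = 0.00238), and stayed called without any 1 library. Bmp4, a ligand, was at 24.5 and 28.9 CPM against 53.3 and 55.7 CPM (2.04-fold higher in pBCSP, adjusted p = 0.0163). The Bmp4 libraries did not overlap, but the call was lost whichever of the 4 libraries was left out, with adjusted p between 0.0578 and 0.162. In the IGF and PTHrP list of 15 genes, Pth1r was higher and Igf1 and Igfbp2 were lower. Igf1, the growth factor, was at 11.4 and 15.0 CPM in SSC and at 50.3 and 79.1 CPM in pBCSP (4.9-fold higher in pBCSP, adjusted p = 0.000406), and held without any 1 library. Igfbp2, which binds it, was at 2.60 and 3.90 CPM against 6.92 and 11.3 CPM and missed without pBCSP replicate 2 (0.328), SSC replicate 1 (0.289) or SSC replicate 2 (0.0885).

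Of 19 FGF genes only Fgf1, a ligand, was called, at 16.4 and 9.60 CPM in SSC and at 3.54 and 6.05 CPM in pBCSP (adjusted p = 0.0465), and it missed without SSC replicate 1 (0.318) or pBCSP replicate 1 (0.273), and also with library size in place of TMM. Of 18 niche cytokines, Angpt1 and Cxcl14 were higher in SSC. Cxcl14, a chemokine, was at 393 and 308 CPM against 164 and 177 CPM (2.06-fold, adjusted p = 0.00797), and missed without SSC replicate 1 (0.0933), pBCSP replicate 1 (0.0757) or pBCSP replicate 2 (0.062). Hedgehog (20 tested), TGF-beta (17) and Notch (14) genes held no call in either direction. Gas1, a membrane protein that binds hedgehog ligands, was at 180 and 239 CPM in SSC and at 466 and 561 CPM in pBCSP with an adjusted p of 0.0601. It was called under 5 of its alternatives, and its adjusted p ranged from 9.1e-07 (DESeq2 on the 4 libraries) to 0.323 (without SSC replicate 1). Boc, a further hedgehog co-receptor, Dlk1 and Hes1 of the Notch list and Thbs1 of the TGF-beta list overlapped between the populations, and Tgfbi, a matrix protein induced by TGF-beta, was at 530 and 617 CPM against 1009 and 1036 CPM (adjusted p = 0.219).

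Proliferation genes were not called. Of 22 mitosis genes, 21 had a log2 fold change below 0, with a median of -0.62 and no call, and of 20 S phase genes 15 were below 0, with a median of -0.20. Cdc20, an activator of the anaphase-promoting complex, was at 30.9 and 37.7 CPM in SSC and at 56.3 and 55.4 CPM in pBCSP (adjusted p = 0.101), while Ccnb2, a mitotic cyclin, was at 15.9 and 29.3 CPM against 30.9 and 27.5 CPM and overlapped. The S phase genes Pcna and Slbp overlapped too. Among 17 G1 cyclins and CDK inhibitors none was called, with Cdkn1a at 2037 and 1826 CPM in SSC and 1736 and 1270 CPM in pBCSP (adjusted p = 0.769).

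Lists of stress, metabolism and protein turnover held few calls. The 22 immediate early genes had a median log2 fold change of 0.14, with Fos at 4991 and 5990 CPM in SSC and 3861 and 4810 CPM in pBCSP (adjusted p = 0.899), and Junb overlapped. The 12 heat shock genes and the 24 hypoxia and glycolysis genes had medians of 0.12 and -0.07. Of 25 genes of protein folding and secretion only P4ha3, a collagen prolyl hydroxylase subunit, was called, at 21.3 and 25.0 CPM in SSC and 97.8 and 66.6 CPM in pBCSP (3.55-fold higher in pBCSP, adjusted p = 0.000437, called without any 1 library). Of 26 matrix proteases 2 were lower in SSC. Adamts2, which trims procollagen, was at 17.4 and 19.3 CPM against 37.1 and 37.1 CPM, and Adamts15 at 0.296 and 0.0691 CPM against 0.893 and 3.95 CPM. Adamts2 missed whichever library was left out (adjusted p between 0.0932 and 0.188), and Adamts15 missed without pBCSP replicate 2 (0.216) or SSC replicate 2 (0.206). Of 15 interferon and MHC class I genes only Ifitm3, a membrane protein that restricts viruses, was called, at 24.3 and 31.4 CPM in SSC and 49.6 and 53.4 CPM in pBCSP, with an adjusted p of 0.0496 that rose to between 0.0868 and 0.319 whichever library was left out.

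A few called genes outside the lists were chosen after their values were seen. Aqp1, a water channel, had the smallest p of all, at 24.9 and 32.2 CPM in SSC and 239 and 193 CPM in pBCSP (7.57-fold higher in pBCSP, adjusted p = 1.9e-05, called without any 1 library). The limb transcription factors Shox2 and Pitx1 were lower in SSC, Shox2 at 30.9 and 30.9 CPM against 92.2 and 82.8 CPM (adjusted p = 0.00797) and Pitx1 at 22.7 and 31.3 CPM against 55.7 and 75.4 CPM (adjusted p = 0.0475). Cst3, the protease inhibitor cystatin C, was among the abundant genes higher in SSC, at 3304 and 3123 CPM against 1005 and 906 CPM (3.36-fold, adjusted p = 0.00619). Shox2 missed without either SSC library (0.0718 and 0.0772), Pitx1 whichever library was left out (0.0567 to 0.299) and Cst3 without pBCSP replicate 2 (0.0728).

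Across the 8 WT populations the called genes had a pattern that the choice of genes fixes only for SSC and pBCSP. Of the 48 genes higher in SSC, 18 had their highest mean in SSC, 13 in BCSP and 17 in the 5 downstream populations. SSC and BCSP together thus held the highest mean for 64.6% of them, against 31.1% of all genes tested, a gap that the choice of genes in part sets. For Col10a1 the order began with BCSP (1033 and 727 CPM), then SSC (141 and 168 CPM) and PCP (13.2 and 10.04 CPM), and the remaining libraries, those of pBCSP, THY, BLSP, 6C3 and HEC, lay between 0.0626 and 2.65 CPM and overlapped. Ibsp was highest in BCSP (3348 and 1486 CPM), PCP (2662 and 1293 CPM) and SSC (1558 and 838 CPM), which overlapped, and only THY (12.99 and 3.15 CPM) lay below pBCSP. Chad did not differ between SSC and BCSP (13510 and 11130 CPM) beyond their spread and lay between 1012 and 4809 CPM in the other 6 populations. On the log2(CPM + 1) scale the BCSP mean was nearer to that of SSC than to that of pBCSP for 42 of the 48 genes (87.5%), against 58.0% of all genes tested. The choice of genes by their SSC and pBCSP values can set part of this gap too, so it is a description only.

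Of the 111 genes lower in SSC, 103 had their highest mean in the 5 downstream populations (92.8%, against 56.2% of all genes tested), 63 of them in THY, and 8 had it in pBCSP. THY held the highest mean for 2065 of all 16130 genes. Since the genes were chosen as lower in SSC than in pBCSP, these shares are a description only. Igf1 ran from 11.4 and 15.0 CPM in SSC over 25.1 and 25.8 CPM in BCSP and 50.3 and 79.1 CPM in pBCSP to 721 and 643 CPM in THY. Col1a1 was between 67770 and 144000 CPM in the 5 downstream populations, against 6420 and 7099 CPM in BCSP and 10730 and 10950 CPM in pBCSP. Dmkn was one of the 8 genes highest in pBCSP, at 19.96 and 25.2 CPM, followed by BCSP at 8.82 and 16.1 CPM, with all other libraries at or under 8.54 CPM. The BCSP mean was nearer to SSC for 55 of the 111 genes (49.5%).

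**Figure D4:**
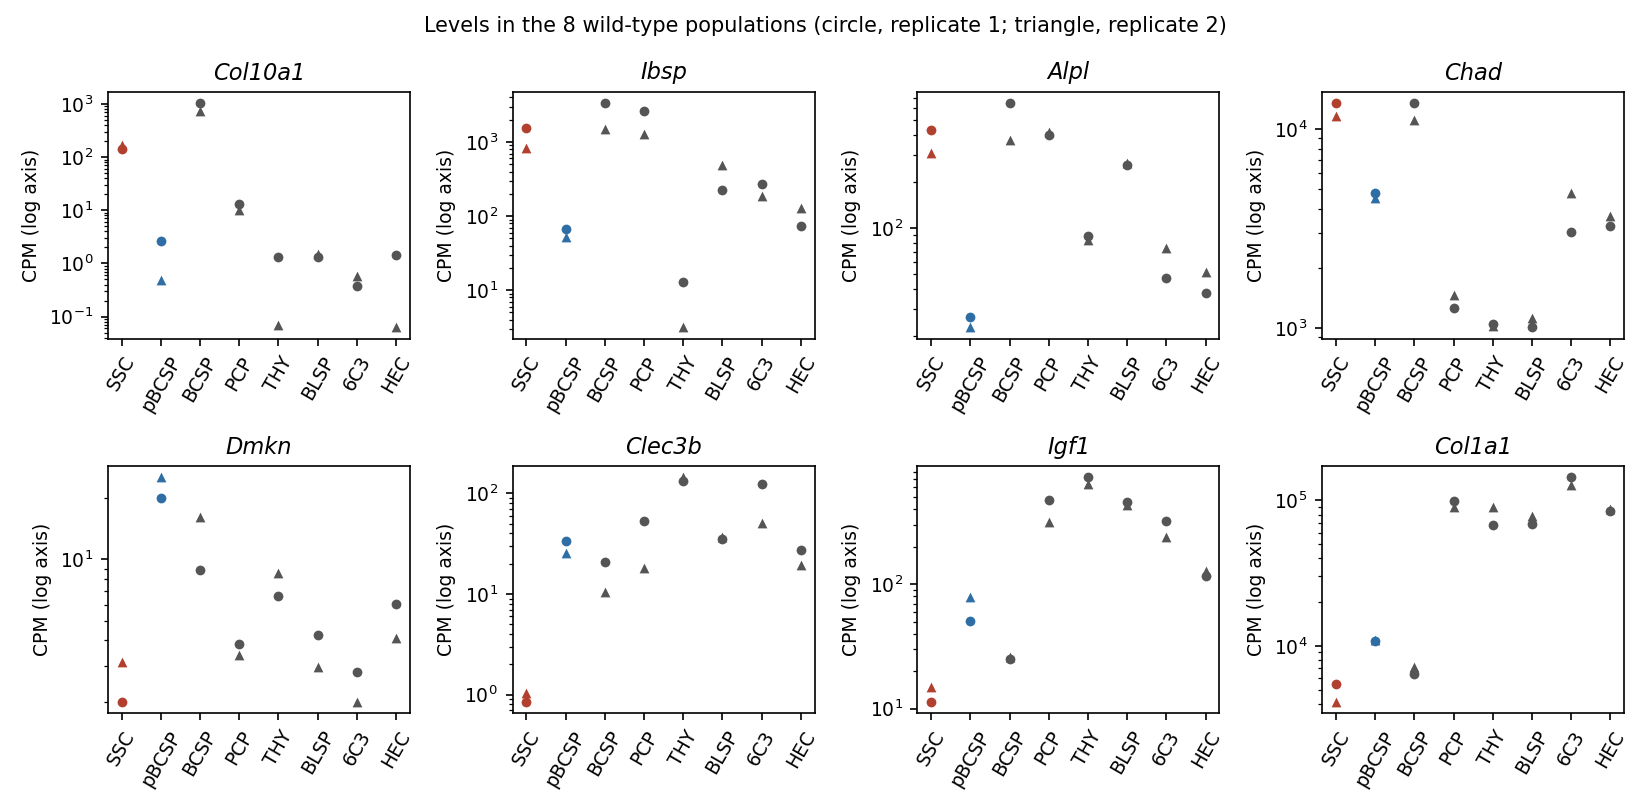
CPM (log axis) of 8 named genes in both libraries of each WT population, with SSC in red, pBCSP in blue and the other 6 populations in grey. Col10a1, Ibsp, Alpl and Chad are as high in BCSP as in SSC or higher, Clec3b, Igf1 and Col1a1 are lowest in SSC, and Dmkn is highest in pBCSP.

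The same contrast was measured in 4 input libraries labelled Mettl3cko, which the WT calls did not use. Mettl3 mRNA did not bear out the label in these libraries. On the scale of each fit it was at 14.9 and 15.5 CPM in WT SSC and 11.8 and 15.99 CPM in WT pBCSP, and at 16.4 and 18.7 CPM in SSC and 22.2 and 22.8 CPM in pBCSP of libraries labelled Mettl3cko. The study itself reports loss of Mettl3 in its knockout mice by qRT-PCR and by Western blot of SSCs. It also reports lower m6A in their SSC, pBCSP and BCSP. For the libraries used here the genotype is taken from the titles, and gene counts do not show which exons were read. In these libraries 131 genes were higher in SSC (0.812% of those tested) and 162 lower (1.00%). The spread for these calls was estimated over 22 input libraries, the WT libraries included, so they are not independent of the WT calls. Fitted on the 4 libraries labelled Mettl3cko alone, 12 genes were called. Of the 48 genes higher in WT SSC, 47 had the same sign and 21 were called, and of the 111 lower genes 102 had the same sign and 50 were called, with no call in the opposite direction. Over all genes tested the sign was the same in 54.3%.

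Among the leading genes, Col10a1 was at 197 and 116 CPM in SSC and 3.25 and 0.676 CPM in pBCSP of libraries labelled Mettl3cko (log2 6.31 ± 0.96, adjusted p = 0.00157), Alpl at 237 and 309 CPM against 14.0 and 28.9 CPM (log2 3.67 ± 0.36, adjusted p = 2.9e-05) and Ibsp at 786 and 619 CPM against 40.5 and 64.2 CPM (log2 3.75 ± 0.61, adjusted p = 0.00277). Dpt was at 3.79 and 8.62 CPM against 167 and 109 CPM and Igf1 at 10.6 and 8.06 CPM against 89.0 and 115.5 CPM. In all 5 genes the SSC and pBCSP libraries were again separated. Most WT calls were not called there, since 21 of the 48 and 50 of the 111 genes were. Mepe was at 10.9 and 5.73 CPM in SSC and 5.74 and 0 CPM in pBCSP, Bglap at 6.93 and 2.30 CPM against 1.61 and 0.952 CPM, and Uts2r at 1.15 and 0 CPM against 0 and 4.92 CPM, with adjusted p of 0.704, 0.291 and 0.604. The libraries of Mepe and Uts2r overlapped and those of Bglap did not. For none of Mepe, Bglap and Uts2r was the difference between WT libraries and those labelled Mettl3cko itself called (adjusted p = 0.598, 0.632 and 0.574). Galnt16, with 1 of the smallest adjusted p in WT, was at 3.55 and 7.71 CPM in SSC and 7.44 and 47.1 CPM in pBCSP there. Galnt16, Dmp1, Vcan, Ociad2 and Dmkn were not called there (adjusted p = 0.106, 0.0906, 0.0722, 0.161 and 0.392). Their difference between WT libraries and those labelled Mettl3cko was not called either (adjusted p between 0.1845 and 0.963). Of all 16130 genes, 7 differed in this contrast between WT and the libraries labelled Mettl3cko (0.0434%), and Ptx4 was the only one of them called in WT. Without pBCSP replicate 2 labelled Mettl3cko the number of calls in these libraries was 1017 in place of 293, and without SSC replicate 2 it was 167.

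**Figure D5:**
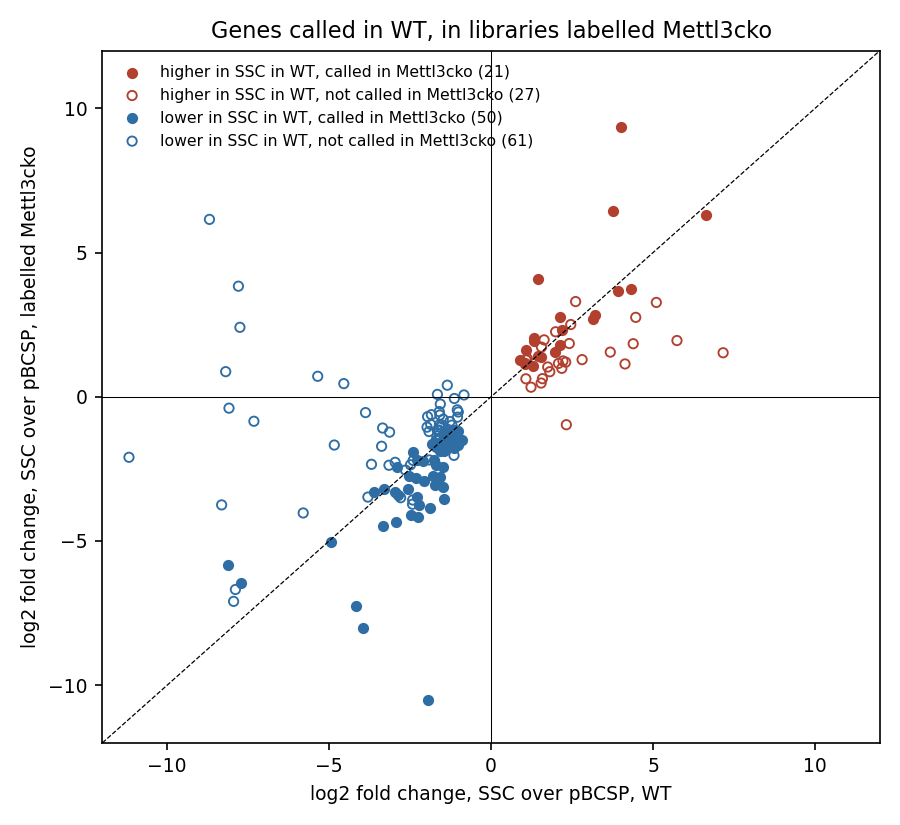
Log2 fold change of SSC over pBCSP in WT (x axis) and in libraries labelled Mettl3cko (y axis) for the 159 genes called in WT, with filled symbols for genes called in both. Red symbols lie above 0 on the y axis in 47 of 48 genes and blue symbols below 0 in 102 of 111, and the fitted values beyond 7 in size come from genes with almost no reads in 1 population.

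In the WT libraries enriched with the m6A antibody, which were made from the same sorted cells and so are another readout and not another sample, 32 genes were higher in SSC (0.198% of those tested) and 77 lower (0.477%). They included 13 of the 48 and 36 of the 111 genes called in input. Col10a1 was at 296 and 372 CPM in SSC and 3.71 and 0.952 CPM in pBCSP in the IP libraries, Alpl at 162 and 125 CPM against 17.4 and 15.9 CPM, and Clec3b at 0 CPM in both SSC libraries against 3.85 and 3.40 CPM. Col1a1 was not separated in IP, at 5646 and 2518 CPM against 5343 and 4750 CPM (adjusted p = 0.791).

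The genes at the centre of the study were not called between the populations. Mettl3, the m6A methyltransferase, had a log2 fold change of 0.13 ± 0.28 (adjusted p = 0.979) and Fem1b, a substrate receptor of a Cullin-2 ubiquitin ligase, one of -0.05 ± 0.24, at 36.8 and 26.5 CPM in SSC and 30.7 and 34.9 CPM in pBCSP (adjusted p = 0.991). None of 19 genes of the m6A machinery and the Fem1b axis was called. Spop, a substrate adaptor of a Cullin-3 ligase, was at 222 and 197 CPM in SSC and 220 and 225 CPM in pBCSP, and Ythdf2, an m6A reader, at 227 and 189 CPM against 216 and 207 CPM, so that both overlapped.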

How the data were processed

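SLIM-seq libraries of sorted skeletal cells of mice at 3 days of age were analysed. Per the labels and the study's methods, RNA was amplified by a protocol based on Smart-seq2 and sequenced in pairs, and the authors trimmed reads with fastp 0.20.1, aligned them to GRCm38 (mm10) with HISAT2 2.2.1 and counted them per gene with featureCounts 2.0.1. The deposited values are whole-number counts without normalization. Whether counting used strand is not given in the sources used here. The authors' tables of fold changes and p-values between genotypes hold their own comparison, so they were not used.

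Of 46959 entries, 128 named 1-Mar or 2-Mar were left out, since their genes are not known, and 44784 of the 46831 kept had a symbol in GENCODE vM21. Counts were tested with edgeR 4.0.16 in R 4.3.3 (with limma 3.58.1): TMM scaling, quasi-likelihood F test, genes kept by filterByExpr over the 4 libraries, fitted over 16 WT input libraries with population as the only term (8 residual degrees of freedom), Benjamini-Hochberg adjusted p under 0.05. The contrast in libraries labelled Mettl3cko, and its difference from WT, came from 1 fit of 22 input libraries, and IP from the 16 WT IP libraries. The SE is the log2 fold change over the square root of F. DESeq2 1.42.0 and further settings were alternatives. The edgeR and DESeq2 steps were tested on simulated data. Figures used Python with matplotlib.

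Genes named are the gate markers, the 12 largest called rises and falls with at least 5 CPM in the higher population, up to 4 called members per direction of each of 36 lists or else its 2 most abundant members per length, Mettl3 and Fem1b. The comparison, lists and tests were chosen with earlier results of these data known. The replicates of SSC and pBCSP differed by more than counting noise (chi-square per degree of freedom 50.7 and 54.4), so each counts as 1 sample. Intervals and floors (3 reads) cover counting error only.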

Additional observations from a re-analysis of the deposited data

Results flagged for a closer look

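The difference of SSC over pBCSP itself differed between WT libraries and those labelled Mettl3cko in 7 genes (interaction term in edgeR), and each has an arm with almost no reads in the libraries labelled Mettl3cko. Ptx4, a pentraxin and the only one called in WT (adjusted p = 0.0116), was at 0.887 and 1.73 CPM in SSC and 5.64 and 4.53 CPM in pBCSP in WT, and at 0 and 0 against 6.77 and 4.06 CPM in the libraries labelled Mettl3cko (adjusted p = 0.0285). Neurl1b overlapped in WT and was at 1.996 and 2.203 CPM in SSC and 0 in both pBCSP libraries labelled Mettl3cko (adjusted p = 0.0285). A930033H14Rik was at 2.40 and 2.33 CPM against 0 and 0 there, Map7 at 2.10 and 1.89 CPM against 0 and 0.0614 CPM, and Slc35g1 at 1.96 and 4.85 CPM against 0.0879 and 0.0614 CPM (adjusted p = 0.0347 each). Chodl and Il17rd ran the other way, at 0 in both SSC libraries labelled Mettl3cko and at 2.78 and 15.9 CPM and 1.17 and 2.86 CPM in pBCSP (adjusted p = 0.0347 each). DESeq2 called 123 genes in this term, and 1190 had an unadjusted p under 0.05 in edgeR.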

How the results depend on the processing

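No called gene of the 159 changed direction under any alternative in which it was tested. The number called moved more than the direction. In place of 159 (48 higher and 111 lower in SSC), 38 genes (15 and 23) were called on the 4 libraries alone, 414 (150 and 264) by DESeq2 on 16 libraries, 274 (119 and 155) by DESeq2 on 4 libraries, 250 (82 and 168) without a filter on low counts and 1319 (502 and 817) at the study's rule of a log2 fold change beyond 0.5 with an unadjusted p under 0.05. Leaving out 1 of the 4 libraries gave 91 to 129 (23 to 40 higher and 64 to 89 lower), with 91 without pBCSP replicate 2, 95 without SSC replicate 2 and 98 without SSC replicate 1, and 9 of the 48 and 33 of the 111 genes were called in each of the 4 fits. DESeq2 size factors, library size alone and a filter at 1 CPM gave 160, 175 and 147. Library size moved the median of all genes to -0.10. In libraries labelled Mettl3cko, 293 became 12 on 4 libraries alone and 167 to 1017 without 1 library. The 7 differences between WT and libraries labelled Mettl3cko became 123 by DESeq2, and the 109 IP calls 13 on 4 libraries alone. The causes were not tested. Over the named genes 1202 alternative values kept their side of the threshold, 88 lost and 20 gained the call. The 1202 include genes not called in the main fit, which have no call to lose. All 88 losses fall on the named genes that were called, 20 higher and 28 lower in SSC.

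With the replicate number as a block, 149 genes were called in WT, 137 of them among the 159, and 319 in libraries labelled Mettl3cko. Among the named genes Fgf1, Mfap5, Igfbp2 and Ifitm3 missed (adjusted p = 0.0606, 0.0604, 0.0592 and 0.0642). The labels give the numbers no meaning, so the replicate block is an alternative only. The replicate differences of SSC and pBCSP correlated at 0.381 across genes in WT and 0.24 in libraries labelled Mettl3cko. Over all 28 pairs of WT populations the correlation ran from -0.491 to 0.389, with 10 pairs over 0.1. In WT, replicates 1 and 2 differ in Xist and Ddx3y in the same way in both populations. In libraries labelled Mettl3cko this contrast is reversed. There Xist was at 0.303 and 94.0 CPM (by library size alone) in SSC replicates 1 and 2 and at 0.085 and 118 in pBCSP. The block behind the 319 calls is 1 term over all 22 input libraries, so it joins opposite contrasts and does not adjust for them. A block over WT SSC and pBCSP alone, added after seeing the data, called 176 genes, 151 of them among the 159, and of the named genes lost Fgf1 (0.0592).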
